A study of Homo sapiens with 2 samples.

Results

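The 10 genes described here are 8 established targets of the transcriptional coactivator YAP (CCN1, CCN2, ANKRD1, AMOTL2, AJUBA, LATS2, AXL and F3) and 2 of the TEAD transcription factors that YAP binds (TEAD1 and TEAD4). They were taken by name from a table of 19362 genes, with CCN1 and CCN2 found under their current symbols, and all 10 had a mean level of at least 1 CPM (reads scaled to library size) over the libraries. RNA sequencing was done on FTC-133, an established human cell line from a follicular thyroid carcinoma, after transfection with siRNA against CHI3L1 (1 library) or with a control siRNA (1 library). The comparison is of transcript levels with and without silencing of CHI3L1. CHI3L1 encodes a secreted chitin-binding glycoprotein. Both groups are the same cell line and carry an siRNA, and no untransfected library was analysed here. The sources used here give neither the number of cultures behind each library nor the siRNA sequences nor the time after transfection.

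YAP and its relative TAZ (gene WWTR1) have no DNA-binding domain of their own and act on genes through TEAD factors. The Hippo kinases, STK3 and STK4 and then LATS1 and LATS2, phosphorylate YAP and TAZ and so keep them out of the nucleus, and several targets of YAP, among them LATS2, AMOTL2 and AJUBA, feed back on this pathway. YAP activity is known to follow cell spreading, contact and matrix stiffness, and in thyroid cancers with RAS mutation the loss of the Hippo regulator NF2 has been linked to YAP.

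Each group has 1 library, so nothing here is checked against replicates, no p-value is given, and each statement is about these libraries rather than the conditions. Worked back from the deposited CPM, the depth was 19467345 reads for CHI3L1 siRNA and 15837449 reads for control siRNA. Intervals are 95% exact intervals of the reads, which cover counting error only and may be too narrow, because no molecular identifiers are described. The siRNA target CHI3L1 stood at 48.6 CPM with CHI3L1 siRNA and at 140.1 CPM with control siRNA. Of 8 thyroid markers, PAX8 and NKX2-1, the lineage factors, were at 71.2 and 112 CPM in the CHI3L1 siRNA library and at 82.8 and 88.6 CPM in the control siRNA library, and TG, the gene of thyroglobulin, was at 0.718 CPM with CHI3L1 siRNA and 0.632 CPM with control siRNA. The summed level of 4 endothelial markers, 3 of them measured, was 9.75 CPM in the CHI3L1 siRNA library and 11.3 CPM in the control siRNA library. Of the 3, PECAM1 was lower with CHI3L1 siRNA, at a ratio of levels of 0.517 (interval 0.381 to 0.699). KDR went the other way, at a ratio of 1.64 (1.11 to 2.48), and the interval of VWF held 1. The summed level of 5 fibroblast markers was 795 CPM with CHI3L1 siRNA and 619 CPM with control siRNA. Of these sums THY1 held 745 CPM and 558 CPM. LUM went the other way from THY1, at 40.2 CPM with CHI3L1 siRNA and 51.8 CPM with control siRNA. The summed level of 5 epithelial markers was 86.4 CPM with CHI3L1 siRNA and 86.9 CPM with control siRNA. Of these sums KRT8 held 55.9 CPM and 51.8 CPM, and KRT18 held 24.7 CPM and 31.6 CPM. CDH1 was at 1.59 CPM with CHI3L1 siRNA and 1.08 CPM with control siRNA, and KRT19 at 0.257 CPM and 0.506 CPM. EPCAM was higher with CHI3L1 siRNA, at a ratio of levels of 1.98 (interval 1.29 to 3.08). The near equal sums thus do not show that each epithelial marker was steady. The summed level of 5 immune markers, of which only PTPRC was measured, was 0.410 CPM with CHI3L1 siRNA and 0.759 CPM with control siRNA. The part of other cell types in the results was not tested. In RNA from a whole culture, fewer cells that express a gene and less of its RNA per cell cannot be told apart.

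Log2 folds are of the level with CHI3L1 siRNA over that with control siRNA, with 1 CPM added to each, and a gene was called higher or lower at 1.5-fold, a log2 fold of at least 0.58 in size. By this rule the genes divided. CCN2 and ANKRD1 were lower in the CHI3L1 siRNA library, LATS2 and F3 were higher, and the other 6 were not past 1.5-fold. The call of LATS2 was lost when folds were corrected for transcript length and GC content (log2 fold 0.33). The counts of 2 higher and 2 lower of 10 stand beside 7.73% higher (1145 genes) and 13.4% lower (1988 genes) among all 14815 genes tested. Centring on well expressed genes left the counts of the 10 genes at 2 and 2 but moved the shares of all genes to 4.63% higher and 17.4% lower. The median log2 fold of the 10 genes was 0.17, and that of all genes tested 0.01. At 2-fold, F3 was higher and ANKRD1 was lower, where 1.03% and 4.41% of all genes tested were. The interval of F3 (1.92 to 2.15) held 2-fold, and its log2 fold was 0.92 after centring and 0.96 at a pseudocount of 10 CPM.

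The promoters of CCN2, ANKRD1 and F3, called at 1.5-fold with or without the length and GC correction, are shown because they hold the letters that TEAD factors, or the factor AP-1 that often acts beside them, are known to bind. Each is the 250 bases before the gene's RefSeq start in GRCh38.p14, on the minus strand. Capitals mark the TEAD motif GGAATG and the AP-1 motif TGANTCA, both searched on either strand, and no matches overlap. CCN2 lies at chr6:131951373-131951622, ANKRD1 at chr10:90921088-90921337 and F3 at chr1:94541760-94542009.
CCN2: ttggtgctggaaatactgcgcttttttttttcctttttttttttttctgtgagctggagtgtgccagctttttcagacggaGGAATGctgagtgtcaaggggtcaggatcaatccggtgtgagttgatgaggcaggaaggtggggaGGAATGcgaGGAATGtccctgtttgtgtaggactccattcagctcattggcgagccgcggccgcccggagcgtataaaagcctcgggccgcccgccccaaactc
ANKRD1: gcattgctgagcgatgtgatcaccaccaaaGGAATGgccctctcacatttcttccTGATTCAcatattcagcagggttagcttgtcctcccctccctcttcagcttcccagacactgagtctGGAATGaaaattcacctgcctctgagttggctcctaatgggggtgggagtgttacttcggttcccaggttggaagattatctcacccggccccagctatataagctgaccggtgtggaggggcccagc
F3: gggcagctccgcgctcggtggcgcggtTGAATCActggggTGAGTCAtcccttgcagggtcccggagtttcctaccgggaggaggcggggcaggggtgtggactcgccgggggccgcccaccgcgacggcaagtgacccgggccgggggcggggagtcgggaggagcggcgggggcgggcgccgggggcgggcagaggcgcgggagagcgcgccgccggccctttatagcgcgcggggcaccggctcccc

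Both genes that were lower carry TEAD motifs in this window. CCN2 has 3, which begin 169, 104 and 95 bases before the start, and no AP-1 motif. ANKRD1 has TEAD motifs that begin 220 and 128 bases before the start and an AP-1 motif that begins 195 bases before it. In GENCODE release 29 the ANKRD1 gene begins farther upstream, at 90921276, inside this window. Its TEAD motif that begins 128 bases before the RefSeq start thus lies within that annotated gene. The F3 gene likewise begins at 94541800 in that release, inside its own window. F3, which was higher, has AP-1 motifs that begin 223 and 210 bases before the start and no TEAD motif. Of the other genes with an entry, AMOTL2, AJUBA and AXL each have 1 TEAD motif in 1 of their annotated promoters, and LATS2 has neither motif.

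**Figure D1:**
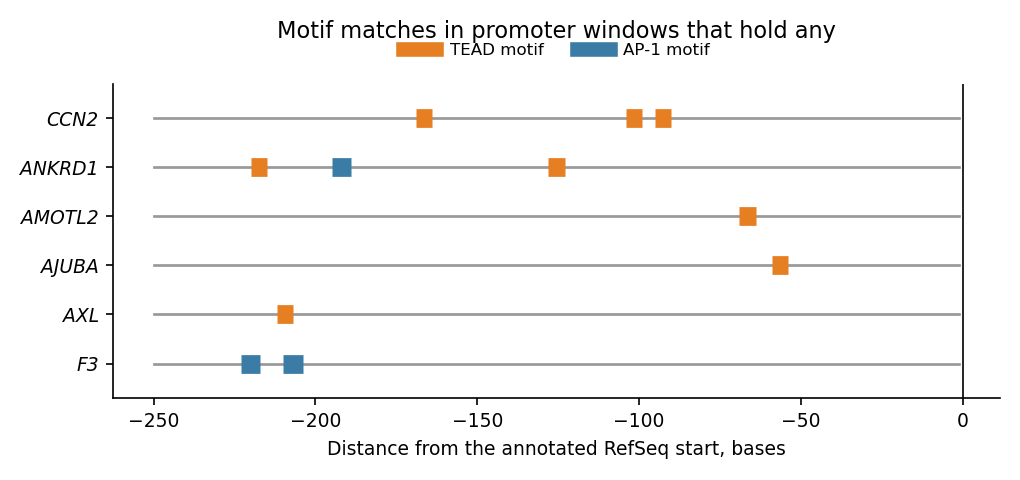
Positions of TEAD motifs (orange) and AP-1 motifs (blue) in the 250 bases before the annotated RefSeq start, 1 line per promoter window with any match; the x axis is the distance from the start in bases. CCN2 holds 3 TEAD motifs, and F3 holds AP-1 motifs without a TEAD motif.

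A TEAD motif was in 5 of 10 promoter windows of 7 of these genes, in 4 of 10 windows of other YAP and TAZ targets and in 11.9% of all 35116 windows, and 3 or more TEAD motifs were in 29 windows of all (0.0826%). An AP-1 motif was in 2 of 10 windows of these genes, in 0 of 10 windows of the other targets and in 6.57% of all. A match is only a run of letters, and no binding was measured. Over all genes tested with 1 promoter window, 51 genes with 2 or more TEAD motifs had a median log2 fold of 0.07, 690 genes with 1 motif had −0.01 and 7163 genes with none had 0.01. Of the 51 genes with 2 or more, 1.96% were called higher and 9.80% lower, and of the 7163 with none, 7.45% higher and 13.99% lower. Of 24 genes with 2 or more AP-1 motifs, 20.8% were called higher and 12.5% lower, and of 7582 with none, 7.28% higher and 13.9% lower. All genes tested include the 10 genes, so these shares may not be independent of CCN2, ANKRD1 and F3.

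The secreted targets CCN1 and CCN2 encode matricellular proteins, which bind integrins and growth factors in the matrix. CCN2 (ENSG00000118523, chromosome 6, 131948176 to 131951373 in GRCh38) was at 54.0 CPM (1053 reads) in the CHI3L1 siRNA library and at 89.9 CPM (1422 reads) with control siRNA. This gave a log2 fold of −0.72 and a ratio of levels of 0.601 (interval 0.554 to 0.651), and the interval lay wholly past 1.5-fold. CCN1 (ENSG00000142871, chromosome 1, 85580761 to 85583962) was at 507 CPM (9876 reads) in the CHI3L1 siRNA library and at 595 CPM (9402 reads) with control siRNA. This gave a log2 fold of −0.23 and a ratio of 0.852 (0.828 to 0.877), an interval below 1 but short of 1.5-fold. Of the other genes of the CCN family, CCN3 was at 44.6 CPM in the CHI3L1 siRNA library and at 22.1 CPM in the control siRNA library, past 1.5-fold with a log2 fold of 0.98. CCN5 (35.8 CPM with CHI3L1 siRNA, 25.4 CPM with control siRNA) and CCN4 (6.82 CPM with CHI3L1 siRNA, 4.93 CPM with control siRNA) were not past it, and CCN6 was below the limit of 1 CPM. After the length and GC correction CCN5 was past 1.5-fold, with a log2 fold of 0.75. Of the summed level of the 6 CCN genes per kilobase of exon, CCN2 made up 9.06% in the CHI3L1 siRNA library and 13.0% in the control siRNA library, and CCN3 made up 6.55% with CHI3L1 siRNA and 2.80% with control siRNA. CCN1 held 81.0% with CHI3L1 siRNA and 82.0% with control siRNA.

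ANKRD1 encodes an ankyrin repeat protein best known from heart muscle, where it acts in the nucleus and the sarcomere. The gene (ENSG00000148677, chromosome 10, 90912096 to 90921276) was at 33.5 CPM (653 reads) in the CHI3L1 siRNA library and at 80.6 CPM (1274 reads) in the control siRNA library. It had the lowest fold of the 10 genes, a log2 fold of −1.24 with a ratio of 0.416 (0.378 to 0.457). Of all genes tested, 2.25% had a log2 fold at or below that of ANKRD1. Its muscle relative ANKRD2 had 2 reads in the CHI3L1 siRNA library and 7 in the control siRNA library, and ANKRD23 was not analysed here.

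The feedback genes AMOTL2, AJUBA and LATS2 did not share the lower level of CCN2 and ANKRD1. LATS2 (ENSG00000150457, chromosome 13, 20973032 to 21061547), a kinase that phosphorylates YAP, was at 41.4 CPM (808 reads) in the CHI3L1 siRNA library and at 24.2 CPM (382 reads) with control siRNA. This gave a log2 fold of 0.75 and a ratio of 1.72 (1.52 to 1.94), a higher level whose interval lay wholly past 1.5-fold, though its corrected fold did not pass. AMOTL2 (ENSG00000114019, chromosome 3, 134355874 to 134375479), a junction scaffold of the angiomotin family that holds YAP in the cytoplasm, was at 66.0 CPM (1286 reads) in the CHI3L1 siRNA library and at 58.8 CPM (930 reads) in the control siRNA library, a log2 fold of 0.16. AJUBA (ENSG00000129474, chromosome 14, 22971174 to 22982642), a LIM protein that binds and inhibits LATS kinases, was at 134 CPM (2616 reads) in the CHI3L1 siRNA library and at 117 CPM (1847 reads) in the control siRNA library, a log2 fold of 0.20. Neither was past 1.5-fold. Among their paralogs, LIMD1, a relative of AJUBA, was past 1.5-fold at 49.8 CPM in the CHI3L1 siRNA library and 31.4 CPM in the control siRNA library, a call lost after centring and after the correction (log2 fold 0.15). LATS1 (27.2 CPM with CHI3L1 siRNA, 19.4 CPM with control siRNA), AMOTL1 (36.9 CPM with CHI3L1 siRNA, 27.0 CPM with control siRNA) and WTIP (5.18 CPM with CHI3L1 siRNA, 6.07 CPM with control siRNA) were not, and AMOT was not analysed here.

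Among the surface proteins, F3 encodes tissue factor, which starts blood coagulation through factor VII. The gene (ENSG00000117525, chromosome 1, 94529225 to 94541800) was at 231 CPM (4508 reads) in the CHI3L1 siRNA library and at 114 CPM (1800 reads) in the control siRNA library. It had the highest fold of the 10 genes, a log2 fold of 1.02 with a ratio of 2.03 (1.92 to 2.15). TFPI, the inhibitor of the tissue factor pathway, was also past 1.5-fold, at 47.9 CPM in the CHI3L1 siRNA library and 30.7 CPM in the control siRNA library, and TFPI2 was at 93.2 CPM with CHI3L1 siRNA and 72.3 CPM with control siRNA, not past it. AXL (ENSG00000167601, chromosome 19, 41219203 to 41261766), a receptor tyrosine kinase, was at 225 CPM (4377 reads) in the CHI3L1 siRNA library and at 168 CPM (2657 reads) with control siRNA. This gave a log2 fold of 0.42 and a ratio of 1.34 (1.27 to 1.40), so the level differed by more than counting error and by less than 1.5-fold. GAS6, the ligand of AXL, was at 291 CPM in the CHI3L1 siRNA library and 341 CPM in the control siRNA library, and PROS1, the ligand of its relatives TYRO3 and MERTK, was at 306 CPM with CHI3L1 siRNA and 222 CPM with control siRNA. TYRO3 (33.8 CPM with CHI3L1 siRNA, 31.0 CPM with control siRNA) and MERTK (2.62 CPM with CHI3L1 siRNA, 3.29 CPM with control siRNA) were also not past 1.5-fold.

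The TEAD factors bind the motif above. TEAD1 (ENSG00000187079, chromosome 11, 12674591 to 12944483) was at 150 CPM (2915 reads) in the CHI3L1 siRNA library and at 142 CPM (2245 reads) in the control siRNA library, a ratio of 1.05 (0.996 to 1.11). TEAD4 (ENSG00000197905, chromosome 12, 2959330 to 3040673) was at 12.3 CPM (240 reads) in the CHI3L1 siRNA library and at 10.8 CPM (170 reads) in the control siRNA library, a ratio of 1.15 (0.937 to 1.40). Both intervals held 1, so no difference was detectable at this depth, while the ratio intervals of the other 8 genes did not hold 1, as was so for 61.6% of all genes tested. TEAD2 was at 14.2 CPM in the CHI3L1 siRNA library and 20.8 CPM in the control siRNA library, a log2 fold of −0.52, and TEAD3 was at 14.6 CPM with CHI3L1 siRNA and 15.3 CPM with control siRNA. Per kilobase of exon, TEAD1 made up 49.3% of the summed TEAD level in the CHI3L1 siRNA library and 45.2% in the control siRNA library, TEAD2 16.1% with CHI3L1 siRNA and 22.9% with control siRNA, and TEAD4 18.4% with CHI3L1 siRNA and 15.5% with control siRNA. Per kilobase of the chosen transcripts these shares were 72.2% with CHI3L1 siRNA and 68.6% with control siRNA for TEAD1, 9.71% with CHI3L1 siRNA and 14.3% with control siRNA for TEAD2, and 10.8% with CHI3L1 siRNA and 9.46% with control siRNA for TEAD4.

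**Figure D2:**
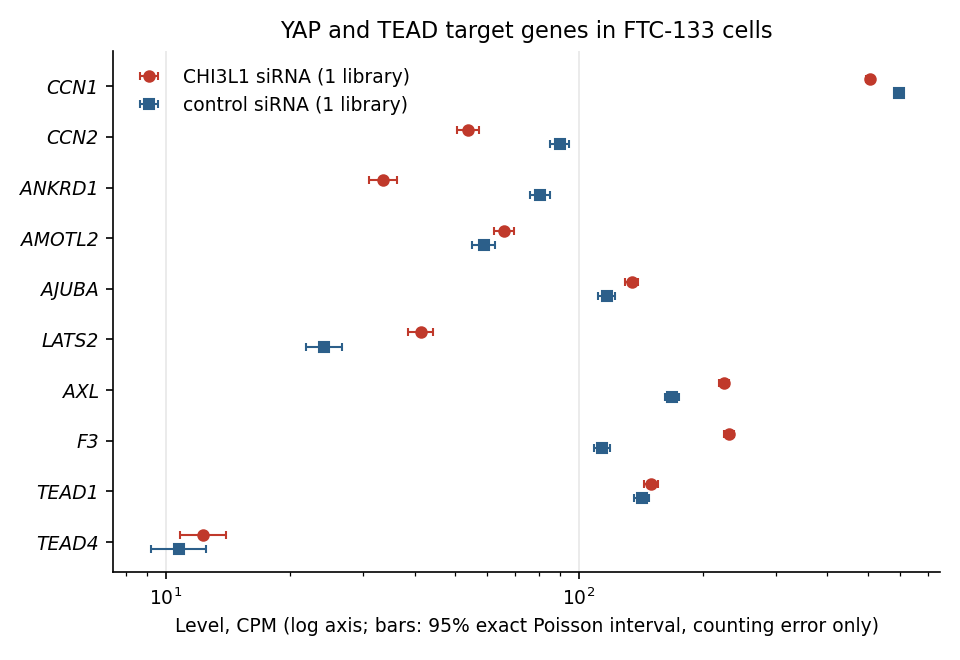
Level of each gene in CPM (log x axis) in the CHI3L1 siRNA library (red circles) and the control siRNA library (blue squares); bars are 95% exact Poisson intervals of the reads. Red points lie left of blue ones for CCN1, CCN2 and ANKRD1 and right of them for the other 7 genes (TEAD1 turns slightly lower after centring, log2 fold −0.03). Bars overlap for AMOTL2, TEAD1 and TEAD4.

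Levels of different genes were set in order as CPM per kilobase of annotated exon. CCN1 led in both libraries, at 206 CPM per kilobase in the CHI3L1 siRNA library and 242 in the control siRNA library. Below it in the CHI3L1 siRNA library came F3 (80.4 CPM per kilobase), AXL (43.6), CCN2 (23.1), AJUBA (22.4), ANKRD1 (16.9), TEAD1 (14.5), AMOTL2 (11.0), LATS2 (7.43) and TEAD4 (5.42). The intervals of CCN2 and AJUBA overlapped there. Below CCN1 in the control siRNA library came ANKRD1 (40.7 CPM per kilobase), F3 (39.6), CCN2 (38.4), AXL (32.6), AJUBA (19.5), TEAD1 (13.8), AMOTL2 (9.83), TEAD4 (4.73) and LATS2 (4.33). ANKRD1, F3 and CCN2, each beside the next, did not differ there beyond counting error, nor did TEAD4 and LATS2. ANKRD1 was thus at rank 6 in the CHI3L1 siRNA library and at rank 2 in the control siRNA library, and F3 at rank 2 with CHI3L1 siRNA and rank 3 with control siRNA. Ranks depend on the length used, most of all for TEAD1, since its annotated exons cover 10279 nt and the transcript chosen for it 3075 nt. Per kilobase of the chosen transcripts TEAD1 was at rank 3 and F3 at rank 2 in both libraries, and ANKRD1 was at rank 7 in the CHI3L1 siRNA library and rank 4 in the control siRNA library.

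Folds in these libraries followed transcript length, and the 10 genes differ in length. The median log2 fold was −0.12 in 3009 tested coding genes with transcripts of 1500 to 2500 nt and 0.21 in 2587 genes with transcripts of 4000 to 6000 nt. CCN1, CCN2, ANKRD1, F3 and TEAD4 are in the shorter class, and AMOTL2, AJUBA, LATS2 and AXL in the longer. Within the shorter class ANKRD1 and F3 stood at opposite ends, with transcripts of 1979 and 2287 nt. Of 2428 genes within 20% of the length of ANKRD1, 2.55% had a lower log2 fold, and of 2760 genes within 20% of the length of F3, 99.3% had a lower one. The share was 8.40% for CCN2 and 94.3% for LATS2. For AMOTL2 and AJUBA it was 49.1% and 54.6%, in the middle of genes of like length.

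**Figure D3:**
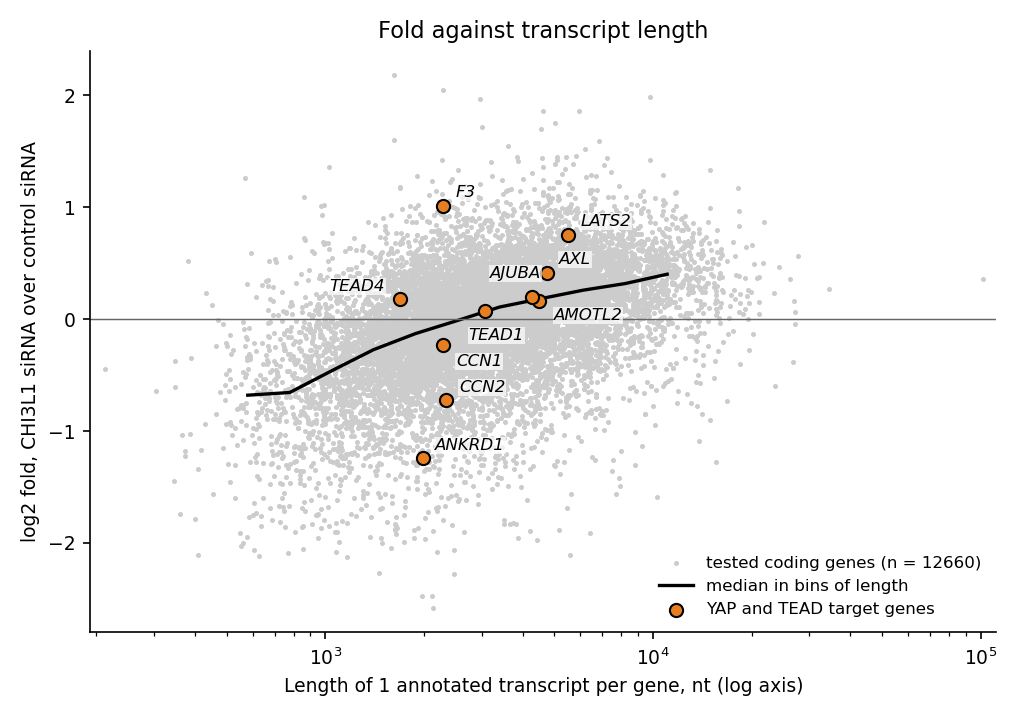
Log2 fold, CHI3L1 siRNA over control siRNA, against the length of 1 annotated transcript per gene (log x axis) for 12660 tested coding genes (grey), with the median in bins of length (black line) and the 10 genes (orange). ANKRD1 and F3 lie far below and above the median at like length, and AJUBA and AMOTL2 lie on it.

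As an alternative, a smooth trend of fold with transcript length, coding length and GC content was subtracted. After it ANKRD1 had a log2 fold of −1.0, CCN2 of −0.73, CCN1 of −0.24 and F3 of 1.20. LATS2 had 0.33 and was no longer past 1.5-fold. AXL had 0.05, AMOTL2 −0.16 and AJUBA −0.09, TEAD1 0.25 and TEAD4 0.28. The count was then 1 higher and 2 lower of 10, beside 6.12% higher and 7.29% lower among 12660 coding genes. The part of length or GC content in the fold of any single gene was not tested.

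**Figure D4:**
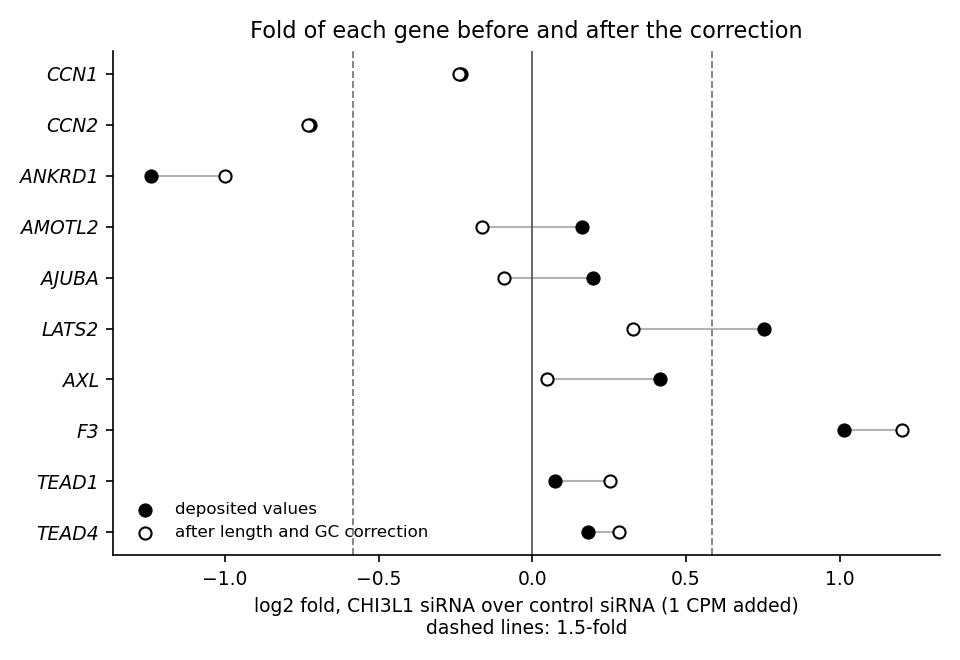
Log2 fold of each gene in the deposited values (filled circles) and after the length and GC correction (open circles); dashed lines mark 1.5-fold. CCN2, ANKRD1 and F3 are past the lines in both, LATS2 in the deposited values alone, and AMOTL2 and AJUBA change sign inside the lines.

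Of 15 other genes from a published pan-cancer list of YAP and TAZ targets, 14 were tested. At least 1.5-fold higher were 5 of 14 and 0 were lower, with a median log2 fold of 0.36, where 7.73% of all genes tested were higher and 13.4% lower. Of all tested genes with transcripts of 4000 to 6000 nt, 11.7% were higher and 4.64% lower. Centring left 1 of the 14 genes higher, where 4.63% of all genes tested were. A counting interval wholly past 1.5-fold higher was found for 2 of the 14 and for 3.58% of all genes tested. IGFBP3, which binds insulin-like growth factors, was at 307 CPM in the CHI3L1 siRNA library and 141 CPM in the control siRNA library, a log2 fold of 1.12. The matrix protein gene CCDC80 was at 478 CPM in the CHI3L1 siRNA library and 305 CPM in the control siRNA library, and MYOF, a membrane repair protein gene, at 430 CPM with CHI3L1 siRNA and 279 CPM with control siRNA. NT5E, the gene of the ecto-enzyme CD73, was at 344 CPM with CHI3L1 siRNA and 225 CPM with control siRNA, and CRIM1, a transmembrane protein gene, at 107 CPM with CHI3L1 siRNA and 68.7 CPM with control siRNA. PTPN14, a phosphatase that binds YAP, was just short of 1.5-fold (log2 fold 0.57), and FOXF2 was not analysed here. After the correction 1 of 14 was past 1.5-fold, IGFBP3, with a log2 fold of 1.16, while NT5E stood at the line with 0.58. The median transcript of this list is 5238 nt, against 3146 nt over all coding genes tested.

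Of the coactivators and TEAD partners, 5 of 8 were tested. Of these, 0 were past 1.5-fold in either direction, where 7.73% of all genes tested were higher and 13.4% lower. After centring 1 of the 5, TEAD2, was lower, where 17.4% of all genes tested were. YAP1 was at 122 CPM (2377 reads) in the CHI3L1 siRNA library and at 82.8 CPM (1309 reads) in the control siRNA library, a ratio of 1.47 (1.38 to 1.58). WWTR1, the gene of TAZ, was at 87.3 CPM (1702 reads) in the CHI3L1 siRNA library and at 64.9 CPM (1027 reads) in the control siRNA library, a ratio of 1.34 (1.24 to 1.45). The interval of each was above 1, and the corrected log2 folds were 0.35 for YAP1 and 0.43 for WWTR1. VGLL4, which competes with YAP for TEAD factors, was at 47.5 CPM in the CHI3L1 siRNA library and 36.9 CPM in the control siRNA library. Transcript levels do not show how much YAP or TAZ was in the nucleus, which was not measured here.

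Of 26 Hippo kinases and upstream genes, 24 were tested, and 3 were at least 1.5-fold higher and 0 lower, with a median log2 fold of 0.37, where 7.73% of all genes tested were higher and 13.4% lower. Of all tested genes with transcripts of 4000 to 6000 nt, 11.7% were higher and 4.64% lower, and the median transcript of this list is 6183.5 nt. After centring 0 of the 24 were higher, where 4.63% of all genes tested were. The 3 were the giant cadherins FAT1 (331 CPM with CHI3L1 siRNA, 206 CPM with control siRNA) and FAT4 (119 CPM with CHI3L1 siRNA, 76.5 CPM with control siRNA), and LIMD1. Of the core kinases and their partners, STK4 had a log2 fold of 0.49, LATS1 of 0.47, SAV1 of 0.32, MOB1A of −0.07 and STK3 of −0.22, and NF2 stood at 51.4 CPM in the CHI3L1 siRNA library and 48.8 CPM in the control siRNA library. The other genes of this list with the highest levels, TAOK1 and FRMD6, had log2 folds of 0.58 and 0.25, short of 1.5-fold. The corrected log2 folds were 0.22 for FAT1, 0.22 for FAT4 and 0.15 for LIMD1. After the correction the median was 0.15, with 1 gene higher (MOB1B, 0.67) and 1 lower (WTIP, −0.66). MOB1B shares 199 nt of exon with DCK on the same strand, so its reads are uncertain.

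**Figure D5:**
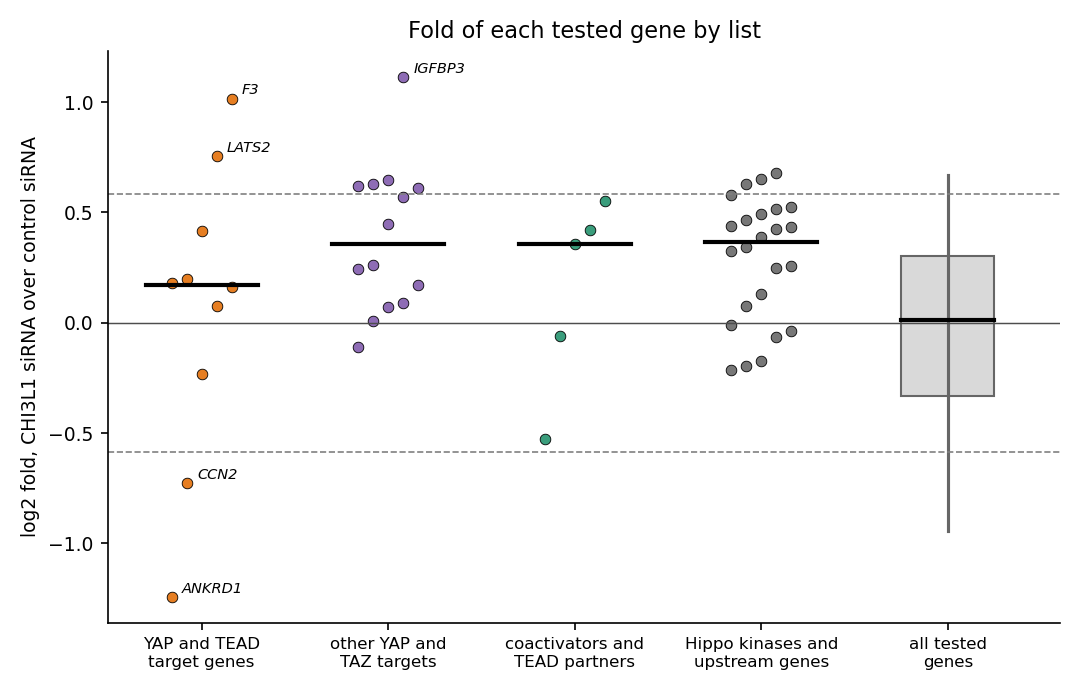
Log2 fold of each tested gene (points) and the list median (bars) for the 10 genes and 3 lists of pathway genes, with all tested genes at the right (box, quartiles; line, 5th to 95th percentile); dashed lines mark 1.5-fold. The 10 genes spread from −1.24 to 1.02, wider than the lists beside them, which have no gene past 1.5-fold lower.

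Exons of 2 of the 10 genes overlap a gene on the opposite strand. The partner of CCN2 had 13 reads in the CHI3L1 siRNA library and 2 in the control siRNA library, and that of AXL had 6 with CHI3L1 siRNA and 13 with control siRNA, few beside the reads of the genes themselves. No source used here gives the strand setting of the counting, so these reads cannot be told apart from those of CCN2 and AXL.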

How the data were processed

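RNA was extracted with Trizol and libraries were made with an Illumina TruSeq RNA kit from 1 ug of total RNA, per the labels' protocols. The build GRCh38 and the tools HISAT2, featureCounts, Trimmomatic, FastQC and MultiQC are named in the submitters' processing notes. The sources used here give no versions, annotation release, normalisation tool or strand setting. The authors deposited 1 table of normalised values whose unit, from the values, is CPM. Each value equals whole reads plus 0.001, multiplied by 0.0513 CPM per read in the CHI3L1 siRNA library and 0.0632 CPM in the control siRNA library (100% of values whole within 0.01 read). The members had between 170 and 9876 reads.

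Ensembl identifiers were matched to symbols (17134 of 19362), and positions and lengths from GENCODE release 29, with 1 principal coding transcript per gene. Promoters are from RefSeq (GRCh38.p14), with entries for 7 of the 10 genes. CCN1, TEAD1 and TEAD4 were not matched. Genes that averaged at least 1 CPM were compared by fold, with no count model and no p-value; the added 1 CPM makes folds of low genes smaller. Ratios carry exact Clopper-Pearson intervals and levels exact Poisson intervals. The correction subtracted a natural spline trend (5 degrees of freedom a term) fitted to coding genes outside the lists and explaining 36.1% of their variance. The members and lists were chosen with earlier results of these data known. Named are all members, CHI3L1, list genes past 1.5-fold or with the highest levels, and relatives of the members; STK3, STK4, NF2, MOB1B and PTPN14 were named after their values were seen. Alternatives were pseudocounts of 0.5 and 10 CPM, equal totals, a trimmed mean of log ratios, centring on genes that averaged at least 50 CPM, other filters and folds, the correction, and counting intervals wholly past the fold. The steps were tested on simulated data. Python 3.11.15, numpy 2.4.6, scipy 1.17.1, pandas 2.3.3, patsy and matplotlib 3.10.9 were used.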

Additional observations from a re-analysis of the deposited data

How the results depend on the processing

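The 2 higher and 2 lower genes of the 10 became 1 and 1 at 2-fold, and the length and GC correction left 1 higher gene. Of the other YAP and TAZ targets, 1 rather than 5 was higher after centring, at 2-fold and after the correction, and 2 by counting intervals. Of the coactivators and TEAD partners, 3 rather than 0 were higher at a fold set below 1.5, and 1 rather than 0 was lower at that fold and after centring. Of the Hippo genes, 3 higher became 1 at a pseudocount of 10 CPM, after the correction and by counting intervals, 0 after centring and at 2-fold, and 14 at the fold set below 1.5, and 1 rather than 0 was lower after the correction. At that lower fold 23.3% of all genes tested were higher and 25.5% lower. By the main rule these shares were 7.73% and 13.4%. They were 1.03% and 4.41% at 2-fold, and 4.63% and 17.4% after centring. At a pseudocount of 10 CPM they were 3.32% and 6.82%, and by counting intervals 3.58% and 8.40%. After the correction they were 6.12% and 7.29% of 12660 coding genes. Each setting alters the fold, the scale or the rule by its construction, and beyond that the cause was not tested. Over 60 recomputed folds of the 10 genes, 0 called values changed sign and 1 crossed the 1.5-fold line (LATS2 after the correction). Of the 60, 13 moved by more than the counting interval. Of the genes not called, TEAD1 was −0.03 after centring, and AMOTL2 was −0.16 and AJUBA −0.09 after the correction. No paired analysis was possible because each group has 1 library. Leaving out a library leaves no comparison. Depth limits TEAD4, with 170 reads in the control siRNA library.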
